A study of Mus musculus with 8 samples.

Results

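The 33 genes described here encode the machinery that builds peroxisomes and the enzymes that work inside them, in fasted liver with and without pyruvate carboxylase. They were taken by symbol from a given list and comprise 13 peroxins, which assemble the organelle, and 20 enzymes and transporters, which mostly oxidise lipids. All 33 were found among the 35275 genes of the deposited tables, and all 33 passed the filter on low counts that left 13168 genes for testing. RNA sequencing had been performed on whole liver, with 1 library per mouse, from 4 Pcx L-/- animals and from 4 littermates with the genotype Pcx f/f. All 8 mice were C57BL/6 males, 9 weeks old, and were fasted for 24 h from 3pm to 3pm. The Pcx L-/- mice carried a floxed Pcx exon, obtained with Flpe germline deleter mice, and Albumin-Cre, whose promoter is active in hepatocytes, so other liver cells kept the gene. Pcx f/f mice carried the floxed alleles without recombination and are called WT in the labels and control in what follows. The comparison addressed how the fasted liver's transcripts respond when pyruvate can no longer be carboxylated to oxaloacetate.

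Peroxisomes are single-membrane organelles that hepatocytes hold in large numbers. They shorten very long chain, branched and dicarboxylic fatty acids and the side chains of bile acid precursors, and their oxidases release hydrogen peroxide that catalase breaks down. Their matrix proteins are made in the cytosol and carry a targeting signal of the first or the second type (PTS1, PTS2), which is bound by the receptor Pex5 or Pex7, docked at the membrane, and released inside, after which the receptor is ubiquitinated and extracted. In rodent liver, fasting acts on many of the enzyme genes through the nuclear receptor Pparα, which binds with its partner Rxr to direct repeats spaced by 1 base (DR1).

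Of the 20 enzymes and transporters, 11 were lower in Pcx L-/- liver and 0 were higher, whereas of the 13 peroxins 2 were lower, 1 was higher and 10 were not altered past the threshold. The threshold was an adjusted p of 0.05, from edgeR's quasi-likelihood fit with p-values adjusted by Benjamini and Hochberg's method over the whole table. No enzyme was higher at an unadjusted p under 0.05 either, and DESeq2's Wald test gave 12 lower and 0 higher. Across all genes tested 13.5% were lower and 14.1% were higher by the same rule. The enzymes held a larger share of lower genes than this background, and the peroxins a share near it. Members were chosen with earlier results of these data known, so these shares are a description and not a test. The median log2 fold change, Pcx L-/- against control, was -0.62 over the enzymes, 0.07 over the peroxins and -0.01 over all genes tested. The largest falls were those of Hao1, Abcd2, Pecr, Pipox and Cat, the 5 members that were lower past the threshold by at least 2-fold, as were 3.58% of all genes tested. The 2 lower peroxins were Pex5 and Pex7, the import receptors, and the higher one was Pex2.

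**Figure D1:**
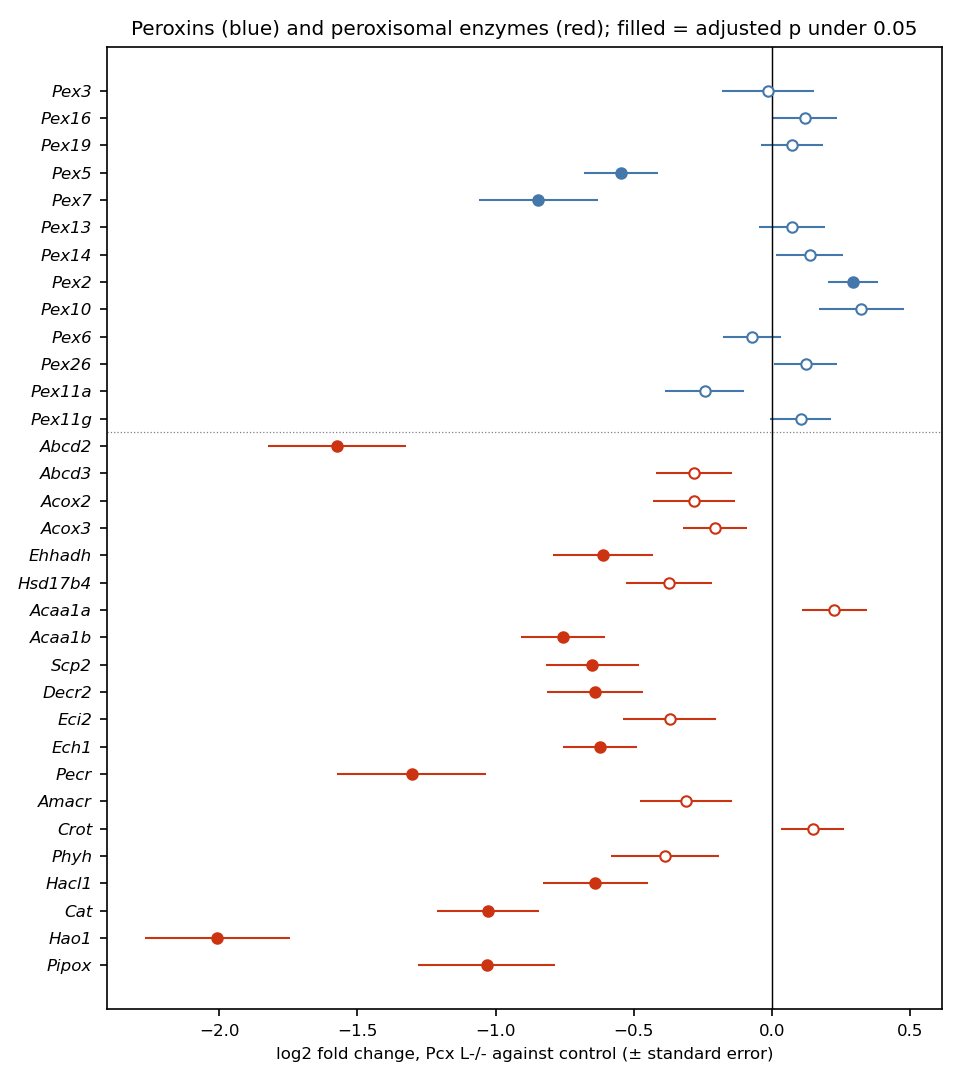
Log2 fold change of each of the 33 members, Pcx L-/- against control, in edgeR's fit with TMM scaling (points), with the standard error (bars), ordered by role from membrane assembly at the top to the oxidases at the bottom. Filled points passed an adjusted p of 0.05. Of the enzymes 18 of 20 lie below 0, while the peroxins cluster around 0 apart from Pex5 and Pex7; scaling by library size alone moves all points up by about 0.28, the shift of the median over all genes.

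The sequences upstream of 4 members are shown because these genes carry the main changes: Hao1 with the largest fall, Cat with the highest level among the genes that fell at least 2-fold, Pex7 as the peroxin with the largest fall, and Acaa1b, which moved apart from its neighbour and paralog Acaa1a. Each run is the 250 bases before the start of the RefSeq transcript on GRCm38.p6, on the gene's own strand, 5′ to 3′. The regions are chr2:134554353-134554602 for Hao1, chr2:103485154-103485403 for Cat, chr10:19907675-19907924 for Pex7 and chr9:119157094-119157343 for Acaa1b, all on the minus strand. Capitals mark 13 bases in Cat that match the DR1 motif, 2 copies of AGGTCA in the same direction with 1 base of any kind between them, with 2 mismatches.
Hao1: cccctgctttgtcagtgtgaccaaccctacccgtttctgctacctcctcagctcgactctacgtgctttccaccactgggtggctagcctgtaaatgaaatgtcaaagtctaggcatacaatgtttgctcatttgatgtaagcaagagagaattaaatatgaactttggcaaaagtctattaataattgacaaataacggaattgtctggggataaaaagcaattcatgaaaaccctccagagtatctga
Cat: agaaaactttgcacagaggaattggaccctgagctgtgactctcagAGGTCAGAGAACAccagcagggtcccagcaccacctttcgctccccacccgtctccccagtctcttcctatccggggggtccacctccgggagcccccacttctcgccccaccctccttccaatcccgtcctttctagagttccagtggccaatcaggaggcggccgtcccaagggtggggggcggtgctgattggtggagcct
Pex7: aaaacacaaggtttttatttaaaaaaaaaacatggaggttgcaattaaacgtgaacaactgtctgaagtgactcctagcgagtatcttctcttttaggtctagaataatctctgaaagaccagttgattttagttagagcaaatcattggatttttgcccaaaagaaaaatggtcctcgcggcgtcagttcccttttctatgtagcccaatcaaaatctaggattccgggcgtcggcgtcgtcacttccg
Acaa1b: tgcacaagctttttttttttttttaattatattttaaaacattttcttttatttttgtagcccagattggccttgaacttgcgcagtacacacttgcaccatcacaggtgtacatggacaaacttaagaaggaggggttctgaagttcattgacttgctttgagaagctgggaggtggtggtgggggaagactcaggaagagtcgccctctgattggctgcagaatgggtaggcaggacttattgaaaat

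RefSeq promoters of 300 bases (250 before the start and 50 after it) were read for 28 of the 33 members. Pex19, Pex2, Abcd2 and Amacr had none. Hsd17b4 lies on chromosome 18, where promoters of members were left out, so its promoter was not searched. The DR1 motif was searched on both strands with at most 2 mismatches over its repeated AGGTCA and was present in 3.86% of 32841 promoters. Among the members it was present in Cat, from 204 to 192 bases before the start. It was also present in the Acox2 promoter at chr14:8258790-8259089, from 9 to 21 bases after that start. The other Acox2 promoter, at chr14:8258970-8259269, held no match. Cat fell at least 2-fold and Acox2 was not altered past the threshold. A match is a description of the letters in this window only. For a member with more than 1 promoter, the one with the most CG dinucleotides was taken. By this choice the median was 19 CG in the 11 peroxins and 14 in the 17 enzymes. The median over every promoter was 7, taken without this choice, so it is not a like measure. The gap between the classes depends on this choice, since Pex5 had promoters with 39, 22 and 9 CG. Within the enzymes the median was 14.5 CG in the 10 that were lower and 14 in the 7 that were not altered past the threshold.

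Between 12016242 and 20023108 reads per library were counted on genes. Pcx itself fell to between 556 and 758 normalized counts in Pcx L-/- liver from between 14371 and 22059 in control liver (log2 fold change -4.80, standard error 0.19). Pcx L-/- replicate 1 stood between the genotypes on the first principal component (55.9% of the variance), at 5.89 against 38.2 to 47.2 in the other 3 Pcx L-/- mice and -41.2 to -28.6 in the controls, and it held 5338 FPKM of red blood cell transcripts against 559 to 1412 in the other 3. It was the only Pcx L-/- mouse numbered in the 500s, so its place and its number series cannot be told apart. Of the hepatocyte markers Alb, Apoa1, Ttr, Serpina1a, Cps1 and Hnf4a, 2 of 6 were lower and 0 higher, with a median of -0.61, and their summed level was 44138 to 48119 FPKM in controls and 31461 to 40018 FPKM in Pcx L-/- liver. Macrophage, endothelial, stellate and cholangiocyte markers had medians of 0.04, -0.10, -0.00 and -0.47, with 1 gene higher (Cd68) and 1 lower (Sox9), and none of the 4 adipose markers passed the filter. In these bulk samples, fewer hepatocytes and less of a transcript per hepatocyte cannot be told apart. The part of the hepatocyte markers in the fall of the enzymes, whose median was similar, was not tested. In the fit of all mice, 13.5% of all genes were lower. Without Pcx L-/- replicate 1, 5 of the 6 hepatocyte markers were lower, against 17.8% of all genes. In that fit the hepatocyte median was -0.75 and the enzyme median -0.70. With libraries scaled by their total alone, 2 of the 6 markers were lower, against 6.61% of all genes. The hepatocyte median was then -0.34 and the enzyme median -0.34.

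The values below are counts normalized to the libraries' effective sizes by TMM, unless FPKM is named. The TMM factors were 0.833 to 0.942 in the controls and 0.97 to 1.16 in Pcx L-/- liver. When libraries were scaled by their total alone, the median over all genes moved to 0.28, the peroxin median to 0.35 and the enzyme median to -0.34. With that scaling 7 peroxins were higher and 1 was lower, and 2 enzymes were higher and 8 were lower, against 29.7% higher and 6.61% lower over all genes. The gap between the class medians was 0.69 under either scaling.

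Among the peroxins that insert membrane proteins, none was altered past the threshold. Pex3 and Pex16, which bring membrane proteins into the peroxisome, had log2 fold changes of -0.02 and 0.12, and Pex19, their soluble chaperone, had 0.07 (adjusted p by edgeR = 0.958, 0.475 and 0.677). The genotypes overlapped in each of these genes. With scaling by library size, Pex16 and Pex19 were higher (0.40 and 0.35).

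Both import receptors fell. Pex5, the PTS1 receptor (ENSMUSG00000005069, chr6:124396816-124415067, GRCm38), had 2769, 2489, 2919 and 2941 normalized counts in control replicates 1 to 4 and 2391, 1678, 1751 and 1795 in Pcx L-/- replicates 1 to 4. Each Pcx L-/- mouse was below each control, although replicate 1 lay close to the lowest control. Pex5 reached 68.5% of its control level (log2 fold change -0.55, standard error 0.13, adjusted p = 0.0121, edgeR). Pex7, the PTS2 receptor (ENSMUSG00000020003, chr10:19853900-19907689), whose cargo includes the Acaa1 thiolases and Phyh, had 1326, 1556, 1382 and 893 normalized counts in controls against 1062, 572, 631 and 612. The genotypes overlapped because Pcx L-/- replicate 1 exceeded control replicate 4, while the other 3 Pcx L-/- mice were below every control. Pex7 reached 55.7% of its control level (log2 fold change -0.85, standard error 0.22, adjusted p = 0.0151, edgeR). Both calls were lost with limma on log2(FPKM + 1), where the changes were -0.27 (adjusted p = 0.0516) and -0.56 (adjusted p = 0.0552). The call of Pex5 was also lost with scaling by library size (-0.27, adjusted p = 0.0662, edgeR), and that of Pex7 without Pcx L-/- replicate 4 (-0.77, adjusted p = 0.0538, edgeR).

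The docking peroxins at the membrane, Pex13 and Pex14, had log2 fold changes of 0.07 and 0.14 (adjusted p = 0.696 and 0.444, edgeR), with overlapping genotypes. Of the exonic bases of Pex14, 28.3% lie under Gm17029 on the opposite strand, and the sources used here do not state whether reads were counted by strand. Of the ubiquitin ligases that act on the bound receptor, Pex2 (ENSMUSG00000040374, chr3:5560188-5576239) rose. It had 794, 822, 735 and 784 normalized counts in controls and 977, 940.4, 903 and 1023 in Pcx L-/- liver. All Pcx L-/- mice were above all controls, by little. Pex2 rose by 0.29 on the log2 scale (standard error 0.09, adjusted p = 0.0351, edgeR), and the call was lost in 8 of 18 alternatives with adjusted p of 0.0593 to 0.115. Pex10, its partner in the same ligase, had a similar change of 0.32 with overlapping genotypes and did not pass the threshold (standard error 0.15, adjusted p = 0.145, edgeR). Pex6, an ATPase that extracts the receptor, and Pex26, its membrane anchor, had changes of -0.07 and 0.12.

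Pex11a and Pex11g, which elongate and divide peroxisomes, did not pass the threshold. Pex11a, a gene induced by Pparα agonists, had 1705 to 2718 normalized counts in controls and 1715 to 2059 in Pcx L-/- liver, with a log2 fold change of -0.24 (adjusted p = 0.237, edgeR). Pex11g had a change of 0.10, and 41.1% of its exonic bases lie under Gm44775 on the opposite strand. Pex3, Pex13, Pex6 and Pex11a passed the threshold in none of the 18 alternatives. Pex10, Pex14, Pex16, Pex19, Pex26 and Pex11g passed it as higher in 3 alternatives each, those without a correction for composition.

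The transporters that carry acyl-CoA into the peroxisome differed. Abcd2, which takes very long chain and polyunsaturated acyl-CoA (ENSMUSG00000055782, chr15:91145871-91191799), had 364, 849.5, 651 and 759 normalized counts in controls and 305, 189, 184 and 203 in Pcx L-/- liver. All Pcx L-/- mice were below all controls, although control replicate 1 and Pcx L-/- replicate 1 lay near each other. Abcd2 reached 33.6% of its control level (log2 fold change -1.57, standard error 0.25, adjusted p = 0.00174, edgeR). Abcd3, the abundant transporter of branched and dicarboxylic acyl-CoA, had 11475 to 13613 normalized counts in controls and 12257, 9627, 9308 and 9248 in Pcx L-/- liver. Its change of -0.28 did not pass the threshold (adjusted p = 0.153, edgeR), and without Pcx L-/- replicate 1 it was -0.39 (adjusted p = 0.0144). Within each library the log2 ratio of Abcd2 to Abcd3 in FPKM was -4.96 ± 0.48 in controls and -6.21 ± 0.16 in Pcx L-/- liver (SD, n = 4 each). Every control ratio was above every Pcx L-/- ratio (exact two-sided permutation test, p = 0.0286, the smallest that 4 against 4 mice allow, and 0.0429 adjusted over 3 ratios).

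The oxidases that open a cycle of peroxisomal β-oxidation on branched substrates were not altered past the threshold. Acox2, which acts on bile acid intermediates, and Acox3 had log2 fold changes of -0.28 and -0.21 (adjusted p = 0.186 and 0.213, edgeR), and the genotypes overlapped in both. Without Pcx L-/- replicate 1 Acox2 fell by 0.43 (adjusted p = 0.00982, edgeR), whereas Acox3 passed the threshold in none of the alternatives. Of the bifunctional enzymes that hydrate and dehydrogenate the chain, Ehhadh, the L-form, had 23139, 30038, 35421 and 33854 normalized counts in controls and 23251, 21172, 15558 and 20202 in Pcx L-/- liver. Control replicate 1 was slightly below Pcx L-/- replicate 1, and the other 3 controls were above every Pcx L-/- mouse. Ehhadh was lower (log2 fold change -0.61, standard error 0.18, adjusted p = 0.0275, edgeR), and this call was lost in 8 of 18 alternatives (adjusted p of 0.0582 to 0.124). Hsd17b4, the D-form, had a change of -0.37 that did not pass (adjusted p = 0.0988, edgeR) and passed by DESeq2's Wald test (adjusted p = 0.0496). The log2 ratio of Ehhadh to Hsd17b4 was 0.96 ± 0.27 in controls and 0.71 ± 0.18 in Pcx L-/- liver (SD, n = 4 each), and this difference of -0.25 was within the spread between mice (exact two-sided permutation test, p = 0.257). It lay between -0.34 and -0.16 when each mouse was left out in turn, and a ratio shared by the genotypes is not shown by this test.

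The thiolases that release acetyl-CoA moved apart. Acaa1b (ENSMUSG00000010651, chr9:119148023-119157093) had 22462, 22744, 25780.3 and 26989 normalized counts in controls and 17484, 14079, 11973 and 14518 in Pcx L-/- liver. All Pcx L-/- mice were below all controls. Acaa1b reached 59.3% of its control level (log2 fold change -0.76, standard error 0.15, adjusted p = 0.00514, edgeR). Its paralog Acaa1a (ENSMUSG00000036138, chr9:119339676-119350299) had 7011, 6662, 7619.6 and 7157 normalized counts in controls and 9360.4, 8113, 8014 and 7794 in Pcx L-/- liver. All Pcx L-/- mice were above all controls, but the change of 0.23 did not pass the threshold (standard error 0.12, adjusted p = 0.183, edgeR), and it passed with scaling by library size (0.51, adjusted p = 0.00366). The ratio of Acaa1b to Acaa1a in FPKM, which no scaling between libraries affects, went from 7.46 to 3.76. On the log2 scale it was 2.90 ± 0.10 in controls and 1.91 ± 0.15 in Pcx L-/- liver (SD, n = 4 each; exact two-sided permutation test, p = 0.0286, and 0.0429 adjusted over 3 ratios). The log2 ratio was 2.80, 2.89, 2.88 and 3.03 in controls and 2.02, 1.91, 1.70 and 2.02 in Pcx L-/- liver, so that replicate 1 lay with the other Pcx L-/- mice in this measure. The paralogs are alike in sequence, and 35.5% of the 50-base stretches of the Acaa1b-201 transcript also occur in Acaa1a, so that their separate counts are uncertain. Scp2, whose gene encodes both a thiolase for branched chains and a sterol carrier protein, had 69514 to 80428 normalized counts in controls and 58365, 39470.5, 41183 and 45716 in Pcx L-/- liver. Its change of -0.65 passed the threshold (adjusted p = 0.0159, edgeR) without overlap between genotypes, but not without Pcx L-/- replicate 2, 3 or 4 (0.0560 to 0.0596).

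**Figure D2:**
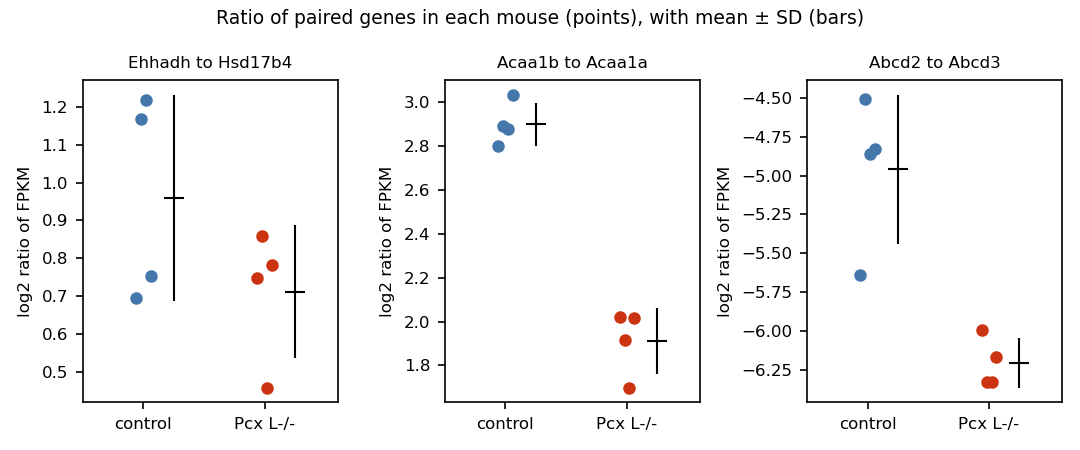
Log2 ratio of FPKM within each library for Ehhadh to Hsd17b4 (left), Acaa1b to Acaa1a (middle) and Abcd2 to Abcd3 (right), with 1 point per mouse and the mean ± SD of 4 mice beside the points; each panel has its own vertical range. The genotypes overlap in the left panel and are apart in the other panels, where the mean fell by 0.99 and by 1.25.

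The auxiliary enzymes, which handle double bonds and methyl branches, showed the same direction with unequal size. Pecr, a trans-2-enoyl-CoA reductase (ENSMUSG00000026189, chr1:72259167-72284314), had 3609, 2856, 3350.3 and 2399.7 normalized counts in controls and 2131, 874, 1005 and 944 in Pcx L-/- liver. All Pcx L-/- mice were below all controls, and replicate 1 was far above the other 3. Pecr reached 40.5% of its control level (log2 fold change -1.30, standard error 0.27, adjusted p = 0.00577, edgeR). Ech1, a dienoyl-CoA isomerase that mitochondria also hold, had 7554 to 9075 normalized counts in controls and 6405, 4716, 5172 and 5187 in Pcx L-/- liver, without overlap, and fell by 0.62 on the log2 scale (adjusted p = 0.00718, edgeR). Decr2, the peroxisomal dienoyl-CoA reductase, had 5253 to 6055 normalized counts in controls and 5178, 3294, 3093 and 3045 in Pcx L-/- liver. The highest of these was just under the lowest control, and the call of Decr2 (-0.64, adjusted p = 0.0199, edgeR) was lost in 7 of 18 alternatives. Eci2, an enoyl-CoA isomerase, and Amacr, the racemase for branched acyl-CoA, had changes of -0.37 and -0.31 that did not pass (adjusted p = 0.129 and 0.191, edgeR). Both passed without Pcx L-/- replicate 1 (-0.56 and -0.49). Crot, which hands shortened chains to carnitine for export, had 10227 to 11302 normalized counts in controls and 10997 to 12171 in Pcx L-/- liver, a change of 0.15 that did not pass (adjusted p = 0.376, edgeR), while with scaling by library size it was higher (0.43, adjusted p = 0.0128).

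In α-oxidation, which removes 1 carbon from phytanic acid, Phyh, the hydroxylase that opens the pathway, had 23668 to 40756 normalized counts in controls and 22969 to 32813 in Pcx L-/- liver, and its change of -0.39 did not pass the threshold (adjusted p = 0.168, edgeR). It passed without control replicate 4, its lowest control (-0.53), and without Pcx L-/- replicate 1, its highest mouse of that genotype (-0.51). Hacl1, the lyase of the same pathway, had 6251, 5093, 5614 and 4114 normalized counts in controls and 4743, 2894, 2863 and 3039 in Pcx L-/- liver. Only Pcx L-/- replicate 1 reached into the range of the controls. Hacl1 was lower (log2 fold change -0.64, standard error 0.19, adjusted p = 0.0288, edgeR), which was lost in 8 of 18 alternatives (0.0738 to 0.113). Exons of Btd and Gm49387 lie over 33.3% of its exonic bases.

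The oxidases outside β-oxidation and catalase fell the most as a group, with 3 of 3 lower and a median log2 fold change of -1.03. Hao1, glycolate oxidase (ENSMUSG00000027261, chr2:134497361-134554368), had 2260.4, 2288, 2746 and 2422 normalized counts in controls and 1039.8, 470.2, 392 and 519 in Pcx L-/- liver. The genotypes were far apart, with Pcx L-/- replicate 1 again nearest to the controls. Hao1 reached 24.9% of its control level (log2 fold change -2.01, standard error 0.26, adjusted p = 0.000835, edgeR). Cat, catalase (ENSMUSG00000027187, chr2:103453849-103485160), had 48750.4, 43705, 45261 and 44780.1 normalized counts in controls and 30918, 18380.0, 21581 and 18683 in Pcx L-/- liver. The controls lay close together, and every Pcx L-/- mouse was well below them. Cat reached 49.1% of its control level (log2 fold change -1.03, standard error 0.18, adjusted p = 0.00312, edgeR). Pipox, which oxidises pipecolate and sarcosine (ENSMUSG00000017453, chr11:77880615-77894096), had 5103, 4997, 4428 and 3314 normalized counts in controls and 3432, 1470.1, 2163 and 1664 in Pcx L-/- liver. Pcx L-/- replicate 1 and control replicate 4 overlapped. Pipox reached 48.9% of its control level (log2 fold change -1.03, standard error 0.25, adjusted p = 0.0116, edgeR).

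**Figure D3:**
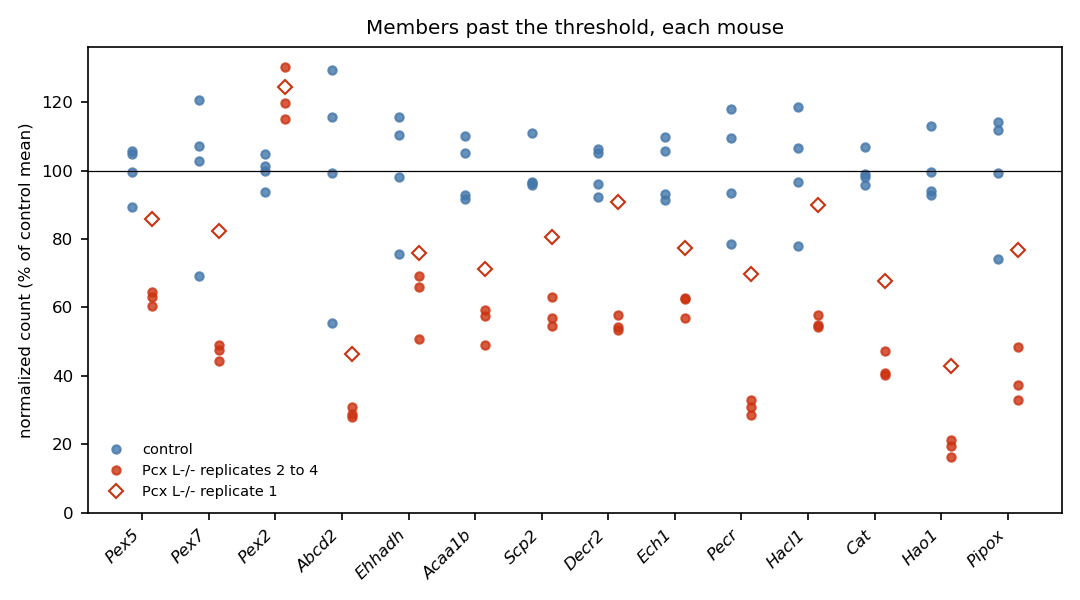
Normalized count of each of the 14 members past the threshold in each mouse, as a percentage of the control mean (horizontal line), for controls (blue circles), Pcx L-/- replicates 2 to 4 (filled red circles) and Pcx L-/- replicate 1 (open diamonds). In 13 of the 13 lower members the diamond is the highest of the Pcx L-/- points. The share of all lower genes for which this holds was not computed, so it is not a trait of these members. Pex2 is the member whose points lie above the line in all 4 Pcx L-/- mice. Calls of Pex5, Ehhadh, Decr2 and Hacl1 were lost when libraries were scaled by total alone.

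The calls thus differed in strength. The 7 genes Abcd2, Acaa1b, Ech1, Pecr, Cat, Hao1 and Pipox were lower in all 18 alternatives. The share of all genes that were lower in every alternative was not computed. No value of one genotype overlapped the other in 11 of the 33 members, 9 of them lower, while 12.5% of all genes were lower without overlap and 15.1% higher. The higher ones were Pex2 and Acaa1a. In no alternative did a called member change direction.

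Leaving out Pcx L-/- replicate 1 changed the gap between the class medians little, to 0.73 from 0.69. Leaving out control replicate 2 gave 0.71. Without Pcx L-/- replicate 1, 17 enzymes were lower and 0 higher, with a median of -0.70, against 17.8% lower over all genes in that fit. The 6 genes gained were Abcd3, Acox2, Hsd17b4, Eci2, Amacr and Phyh. The peroxins still had 2 lower and 1 higher. Without Pcx L-/- replicate 2, 3 or 4, 7 enzymes were lower in each case, while over all genes the share fell to 7.86%, 8.28% and 7.11%. In the mice numbered in the 800s, 2 controls and 3 Pcx L-/- mice, 15 enzymes were lower, against 15.8% of all genes. In the 500s, with 2 controls and 1 Pcx L-/- mouse and so no test, this mouse was below both controls in 12 of the 13 members called lower. The same held for 89.7% of all genes called lower, and Ehhadh was the exception among the members.

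Mouse by mouse, the peroxins and the enzymes separated in each Pcx L-/- liver. The median log2 ratio to the control mean over the enzymes was -0.21, -0.70, -0.75 and -0.63 in Pcx L-/- replicates 1 to 4, and over the peroxins it was 0.26, 0.01, -0.06 and 0.06. The enzyme median was therefore the lower one in all 4 mice, and replicate 1 was shifted up in both classes. The difference between the medians of the classes, 0.69 in the fit of all mice, lay between 0.61 and 0.84 over the 18 alternatives. It is given as a description, since the genes of a class share the same 8 libraries.

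**Figure D4:**
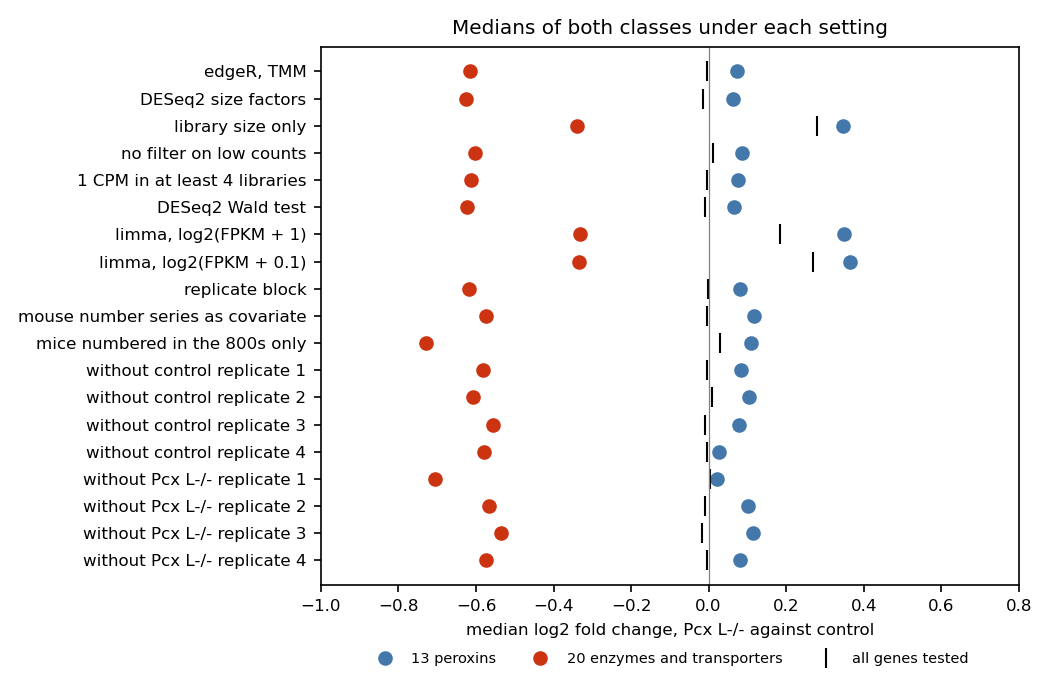
Median log2 fold change, Pcx L-/- against control, over 13 peroxins (blue), 20 enzymes and transporters (red) and all genes tested (black ticks), in the fit with edgeR and TMM scaling (top row) and in each of 18 alternatives. Scaling by library size and limma on FPKM move all medians to the right, with the all-gene median at 0.28, 0.18 and 0.27, and the gap between the classes is 0.61 to 0.84 in all rows.

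Per length of gene, the enzymes were the abundant class. Scp2 had the highest level in control liver, 1461 ± 27.3 FPKM (SD, n = 4), followed by Phyh at 1289 ± 333 FPKM, and these levels did not differ beyond their spread. Cat (933 ± 74.9), Acaa1b (772 ± 43.5) and Ehhadh (539.7 ± 89) came next. The most abundant peroxin, Pex16, held rank 17 of 33 with 73.5 ± 3.76 FPKM, and Pex10 was the lowest member with 2.36 ± 0.4 FPKM. In Pcx L-/- liver the order changed at several places. Phyh took rank 1 (1180.0 ± 87.9 FPKM, against 1126 ± 106 for Scp2), Hao1 dropped from rank 18 to 26, Pecr from 11 to 18 and Abcd2 from 31 to 33, while Acaa1a went from 15 to 10. Summed FPKM came to 6217 to 7338 over the enzymes in controls and 5299 to 6173 in Pcx L-/- liver. Over the peroxins the sum was 317 to 383 FPKM in controls and 396 to 421 FPKM in Pcx L-/- liver. Neither sum overlapped between genotypes, but the enzyme sums nearly met, at 6173 FPKM in Pcx L-/- replicate 1 and 6217 FPKM in control replicate 4. The sums moved in opposite directions on this scale, which has no correction for composition. By limma on this scale, the median log2 fold change over all genes was 0.18 with a pseudocount of 1 and 0.27 with 0.1. The higher peroxin sum was not set apart from this shift of all genes.

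**Figure D5:**
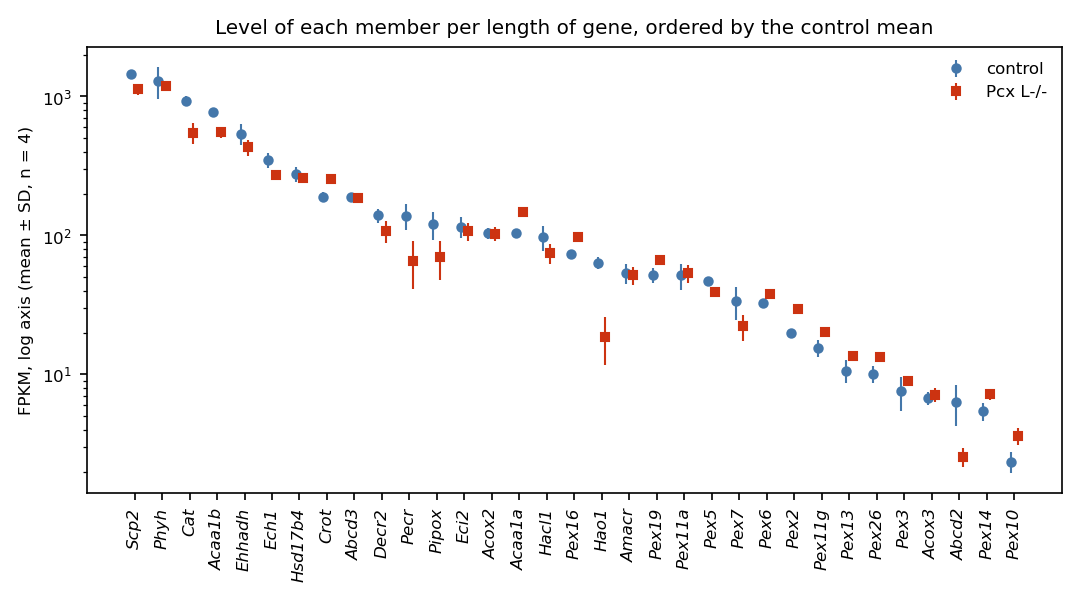
FPKM of the 33 members on a log axis, mean ± SD over 4 mice, in control (blue circles) and Pcx L-/- liver (red squares), ordered from left to right by the control mean. Enzymes fill ranks 1 to 16, Hao1 and Abcd2 show the widest gaps between genotypes, and on this scale, which has no correction for composition, most peroxins lie above their control level.

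Other genes of the organelle came from a list written from general knowledge. Of its 42 further peroxisomal proteins tested, 7 were lower and 4 were higher, with a median of -0.20, against 13.5% lower and 14.1% higher over all genes. These counts depended on the libraries and the scaling. Without Pcx L-/- replicate 1, 21 were lower and 5 higher (median -0.28), against 17.8% lower and 16.7% higher over all genes. With scaling by library size 6 were lower and 10 higher (median 0.07), against 6.61% lower and 29.7% higher over all genes. The 3 lowest were Acsl1, an acyl-CoA synthetase (-1.01), Abcd4, a transporter that was long assigned to peroxisomes and acts in lysosomes (-0.97), and Gstk1, a glutathione transferase (-0.84). The 3 highest were Acot6, an acyl-CoA thioesterase (2.11), Slc25a17, a carrier of cofactors (0.77), and Agps, an enzyme of plasmalogen synthesis that Pex7 imports (0.57).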

How the data were processed

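Liver RNA of 8 mice was sequenced by a company with 1 library each. Per the labels the submitters' processing notes name mm10 (GRCm38), STAR 2.5, HTSeq 0.6.1 and DESeq2, without saying whether reads were counted by strand. The authors deposited raw read counts per Ensembl gene and FPKM, which equalled the count over 1 length per gene and the library total in 100% of 142384 values above 0 (relative tolerance 1e-06). Symbols came from GENCODE for 34490 of 35275 IDs.

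Counts were tested with edgeR 4.0.16 (R 4.3.3; TMM, quasi-likelihood test, a model of genotype alone, genes kept by filterByExpr at 10 counts and a total of 15), and standard errors are approximate. The biological coefficient of variation was 0.181. Ratios of FPKM were compared by exact permutation tests. Alternatives were DESeq2 1.42.0, limma 3.58.1 on log2(FPKM + 1) and log2(FPKM + 0.1), other scalings and filters, the series of mouse numbers, a replicate block and each mouse left out. Steps were tested on simulated data. All 33 members are named by role, and of each list the 3 highest and 3 lowest past the threshold, apart from a few genes that are not reported here. Members and lists were chosen with earlier results of these data known. Promoter sequences are from RefSeq (GRCm38.p6).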

Additional observations from a re-analysis of the deposited data

Results flagged for a closer look

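In 10 of 72 groups of 4 mice, 1 mouse lay far from the other 3 by Dixon's criterion. A rate of 1 in 20 would give about 3.6, but the groups reuse the same 8 libraries, so this is not a test. The share of all genes flagged by this rule was not computed, so the count is not a result about the members. In 9 of the 10 flagged groups the far mouse was Pcx L-/- replicate 1, which was the highest of its genotype each time. Among the peroxins these were Pex5, with 2391 normalized counts against 1678 to 1795 in the other 3 mice, and Pex7, with 1062 against 572 to 631. Among the transporters they were Abcd2 (305 against 184 to 203) and Abcd3 (12257 against 9248 to 9627). Among the enzymes they were Hsd17b4 (12321 against 10083 to 10459), Decr2 (5178 against 3045 to 3294), Eci2 (3639 against 2259 to 2401), Pecr (2131 against 874 to 1005) and Hacl1 (4743 against 2863 to 3039). The remaining case was Scp2 in control replicate 4, with 80428 normalized counts against 69514 to 70080.0 in the other controls. Leaving out Pcx L-/- replicate 1 put Abcd3, Hsd17b4 and Eci2 past the threshold, with log2 fold changes of -0.39, -0.44 and -0.56. The cause of its position was not tested.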

How the results depend on the processing

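Between 2109 and 4602 genes were altered when each mouse was left out, and the counts were 2109 without Pcx L-/- replicate 4, 2295 without replicate 2 and 4602 without replicate 1. Over the same fits 7 to 17 enzymes were lower and 0 higher, and 0 to 1 peroxins were higher and 1 to 2 lower. Scaling by library size gave 7 peroxins higher and 1 lower and 2 enzymes higher (Acaa1a and Crot), against 29.7% higher and 6.61% lower over all genes. Limma on log2(FPKM + 1) and on log2(FPKM + 0.1) each gave 7 peroxins higher and 0 lower and 2 enzymes higher. The median over all genes was 0.18 and 0.27 in these limma fits. Their share of all genes higher was not computed, so the limma counts are not a result about the peroxins. The call of Pex2 was lost with no filter on low counts and in the mice numbered in the 800s, so that 0 peroxins were higher. With the replicate number as a block, 2975 genes were altered, 0 peroxins were higher, 2 peroxins and 10 enzymes were lower, and Pex2 and Ehhadh lost the threshold. The numbers did not pair the mice (correlations of 0.10, -0.13, -0.10 and -0.07 between same-numbered mice). The ratios kept their direction in every alternative. With 1 mouse left out, the exact permutation p, taken as the doubled smaller tail, was 0.0571 for the ratios of Acaa1b to Acaa1a and of Abcd2 to Abcd3. No member past the threshold changed sign, but the balance of calls among the peroxins turned with library size and limma, and under these Pex3, Pex6, Pex11a and Acox3, which did not pass, went from below 0 to above it. The cause of the calls lost was not tested. Pex10 had the fewest reads of the members, with 102 to 177 normalized counts.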

Other observations

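Targets of Pparα that act outside the peroxisome were called in both directions. Of 32 tested, 11 were lower and 5 higher by edgeR (median log2 fold change -0.28), against 13.5% and 14.1% over all genes. Without Pcx L-/- replicate 1, 17 were lower and 5 higher (median -0.38), against 17.8% and 16.7%. With scaling by library size 5 were lower and 6 higher, against 6.61% and 29.7%. The share higher was thus near or below that over all genes. The highest were Fgf21, a fasting hormone (4.23), Acot2, a mitochondrial thioesterase (2.65), and Plin2, a lipid droplet coat protein (1.47). Among the lowest were Vnn1, a pantetheinase (-1.11), and Acaa2, the mitochondrial thiolase (-0.81). Ppara itself fell from between 3238 and 3858 normalized counts in controls to between 1999 and 2794 in Pcx L-/- liver (log2 fold change -0.52, standard error 0.13, adjusted p = 0.0137, edgeR), without overlap, and with scaling by library size it did not pass (-0.24, adjusted p = 0.107). Of 8 genes of the receptor and its partners, 1 was lower in this fit, 2 without Pcx L-/- replicate 1 and 0 with scaling by library size.

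Markers of liver zones were counted beside the shares over all genes, which were 13.5% lower and 14.1% higher. These shares were 17.8% and 16.7% without Pcx L-/- replicate 1, and 6.61% and 29.7% with scaling by library size. Of 8 periportal markers 5 were lower and 0 higher, with a median of -0.76 (7 lower without Pcx L-/- replicate 1, and 4 lower and 1 higher with scaling by library size), led by Cyp2f2 (-1.16), Cdh1 (-0.92) and Arg1 (-0.83). Of 8 pericentral markers 1 was lower, Cyp2e1 (-0.98), and 2 were higher, Axin2 (0.67) and Tbx3 (0.49), with a median of -0.15, and without Pcx L-/- replicate 1, 3 were lower and 2 higher. With 8 markers, the pericentral counts are too few to be set apart from the shares over all genes. The part of the zones in the changes of the peroxisomal enzymes was not tested.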
